A study of Homo sapiens with 6 samples.

Results

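RNA polymerases I, II and III are the nuclear enzymes that copy DNA into RNA, and the genes of their subunits were followed in a leukaemia cell line in which ANXA1, the gene of the phospholipid-binding protein annexin A1, was silenced. The subunit genes were taken as the protein coding genes of the deposited annotation whose names begin with POLR1, POLR2 or POLR3 and a letter, together with TWISTNB, CD3EAP and ZNRD1, the older names of subunits of polymerase I. This gave 34 genes under 33 names, since POLR2J3 stood under 2 gene identifiers, of 58735 genes in all. Of these, 6 belong to polymerase I alone, 2 to polymerases I and III, 5 to all 3 enzymes, 11 to polymerase II and 10 to polymerase III. A further 11 genes with matching names are annotated as pseudogenes or as transcripts without a reading frame and were left out.

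The 3 siANXA1 libraries came from cells labelled CCRF-SB, a lymphoblast-like B cell leukaemia line, that carried a lentiviral vector silencing ANXA1. The 3 siControl libraries came from the same cells with an empty vector, labelled as wild type. The siANXA1 cells were selected with puromycin as a stable line, the medium was RPMI-1640 with serum for both, and both groups are labelled day 5. The labels do not say whether a group was 1 clone or whether its libraries were separate cultures, and what the p-values measure is the spread among the libraries, which may be technical.

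Polymerase I makes the large ribosomal RNAs in the nucleolus, polymerase II makes messenger RNAs, and polymerase III makes tRNAs and other small RNAs. Each enzyme is built around a catalytic core of 2 large subunits, with an assembly platform, a stalk and small subunits, some of which all 3 enzymes share. Growing and cancer cells make much ribosomal RNA and tRNA, and the activity of polymerases I and III is known to follow nutrient and growth signals, among them MYC and mTOR.

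Total counts lay between 25657804 and 53661293 in siANXA1 and between 41913392 and 49778490 in siControl. Levels are given as CPM, counts scaled to library size with TMM factors, unless a level per length (TPM) is named. ANXA1 stood at 1606, 1723 and 1712 CPM in siANXA1 replicates 1 to 3, against 3696, 3696 and 3756 CPM in siControl. Of 16 markers listed for B cells, 12 stayed under 1 CPM in every library, MS4A1 and CD79A among them, whereas erythroid genes were abundant. The label of a B cell line thus does not match most of these markers. The erythroid and megakaryocyte markers summed to between 4027 and 6033 CPM in siANXA1 and between 783 and 1858 CPM in siControl, with 1 of 15 under 1 CPM throughout, and the B cell markers summed to between 256 and 304 CPM and between 389 and 491 CPM, nearly all of it PTPRC. These sums moved with the groups, and their part in the results below was not tested. In siANXA1 the largest part of the erythroid sum was HBE1, at 3286, 2140 and 2973 CPM. In siControl HBE1 read 4.74, 637 and 9.82 CPM. Single markers did not all follow the groups. KLF1 read 153, 65.7 and 154 CPM in siANXA1, against 43.1, 37.3 and 168 CPM in siControl. ITGA2B read 5.11, 7.63 and 3.99 CPM in siANXA1, against 15.1, 15.7 and 6.41 CPM in siControl. The libraries also divided across the groups. DDIT4, which encodes a stress-induced inhibitor of mTOR, read 109.8, 1435 and 109 CPM in siANXA1 replicates 1 to 3, against 2282, 2171 and 189 CPM in siControl replicates 1 to 3, and the first principal component of all genes (39.9% of the variance) placed siANXA1 replicate 2 with siControl replicates 1 and 2.

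All 34 genes passed the filter on low counts. None passed edgeR's quasi-likelihood test at an adjusted p of 0.05, where 0.0111% of the 17947 genes tested did (2 genes, both higher). ANXA1 itself did not pass, with a log2 fold change of -1.14 ± 0.09 (SE) and an adjusted p of 0.0571 in edgeR. Its adjusted p in DESeq2 was 3.2e-07. The smallest edgeR adjusted p among the 34 subunit genes was 0.574. At an unadjusted p under 0.05 there were 6, against 7.93% of all genes tested: 5 were higher and 1 lower in siANXA1, against 3.4% and 4.52%. In 5 genes every siANXA1 library lay above every siControl library, and in 2 genes below, against 7.41% and 7.24% of all genes. Limma-voom called none, against 0.0167% of genes, and DESeq2 called 2, POLR3G and POLR2I, both higher, against 0.834% of the genes it tested, 0.36% higher and 0.474% lower. The log2 fold change was positive in 26 of the 34 genes, with a median of 0.30, beside 50.5% positive and a median of 0.01 over all genes tested. The libraries divided unevenly between the groups, with siANXA1 replicate 2 on the side of siControl replicates 1 and 2. The part of this division in the positive shift was not tested. The count at an unadjusted p under 0.05 was 6 with all libraries and rested on single ones: it was 3 without siANXA1 replicate 1, 2 without siANXA1 replicate 3, 2 without siControl replicate 1 and 16 without siControl replicate 3. With the side of the first principal component as a term, an alternative added after the data were seen, it was 10, and no subunit gene passed edgeR's adjusted threshold. On counts simulated with the means and spread of these libraries, the test found none of the 2-fold changes (0 of 67). It found 18 of 67 at 4-fold and 34 of 66 at 8-fold. The changed genes were drawn at random from all genes tested, and the division of the libraries was not simulated as such. Most changes of 2-fold and 4-fold in such genes were thus missed. What was detectable in the 34 subunit genes themselves was not simulated.

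**Figure D1:**
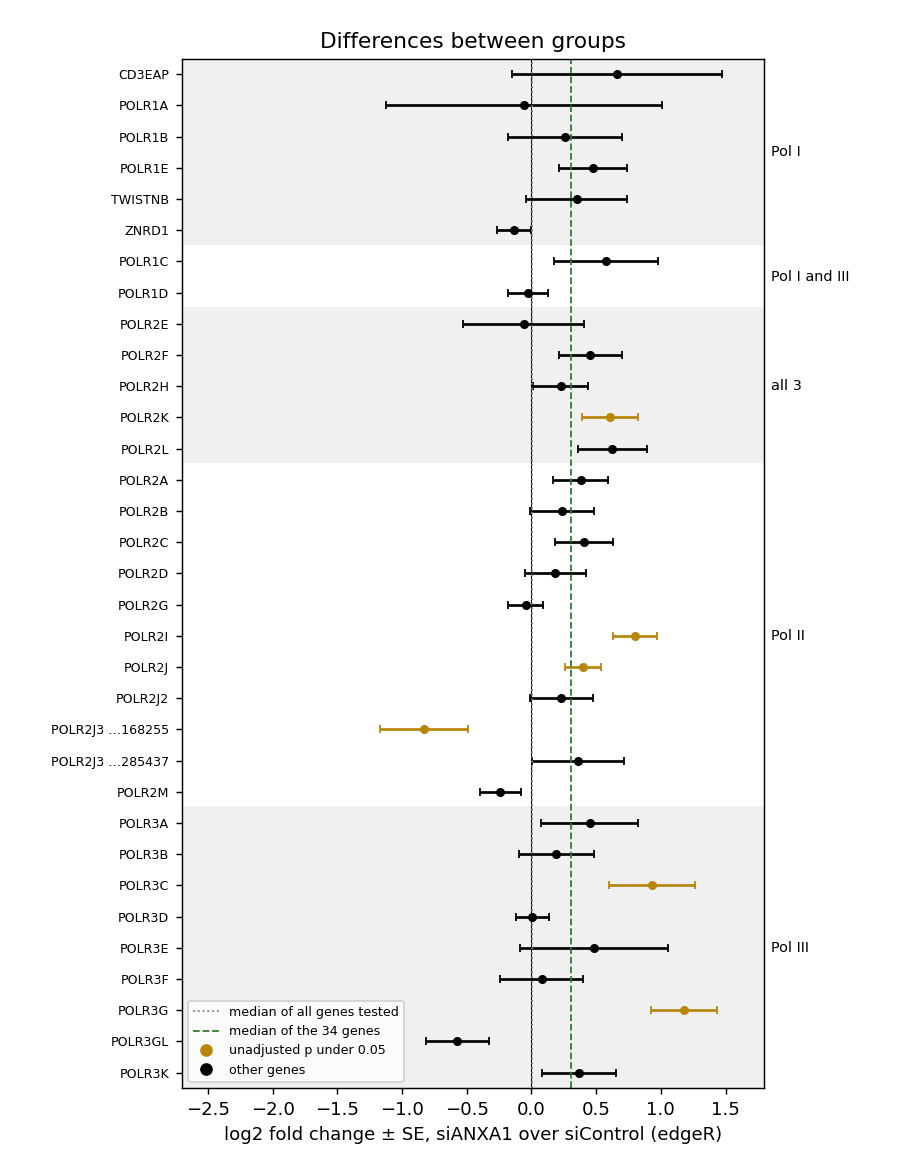
Log2 fold change of 33 subunit genes, siANXA1 over siControl, with its SE (edgeR, 3 libraries a group), by enzyme. The points lie mostly right of 0, the dashed line marks the median of 0.30 over all 34 genes, and POLR3G (1.18), POLR3C (0.93) and POLR2I (0.80) lie farthest to the right.

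POLR3G and POLR3GL had log2 fold changes of opposite sign. They encode alternative forms of a single subunit of polymerase III, which joins POLR3C and POLR3F in the trimer that opens promoters. The form with POLR3GL is found in most tissues, and POLR3G is known from stem cells and tumours. In GRCh38, POLR3G spans bases 90471748 to 90514553 of chromosome 5 and POLR3GL bases 145964702 to 145978848 of chromosome 1, both on the plus strand. POLR3G stood at 39.9, 41.8 and 26.2 CPM in siANXA1 replicates 1 to 3, against 13.3, 15.8 and 18.5 CPM in siControl replicates 1 to 3. Every siANXA1 library was above every siControl library, with 35.98 ± 8.50 CPM in siANXA1 and 15.9 ± 2.57 CPM in siControl (SD, n = 3 each). The log2 fold change was 1.18 ± 0.25 (SE), with an adjusted p of 0.574 in edgeR and an adjusted p of 0.0232 in DESeq2. Over the 17 alternatives run, the log2 fold change of POLR3G stayed between 0.94 and 1.37 and its unadjusted p stayed under 0.05 in all 17.

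POLR3GL stood at 42.5, 63.9 and 45.2 CPM in siANXA1, against 81.7, 85.5 and 58.1 CPM in siControl. The groups overlapped, since siANXA1 replicate 2 lay above siControl replicate 3. The log2 fold change was -0.57 ± 0.24 (SE; edgeR adjusted p = 0.627), and it was negative under all 17 alternatives, from -0.77 to -0.40. Per length, the ratio of POLR3G to POLR3GL was 0.997, 0.559 and 0.697 in siANXA1 replicates 1 to 3, against 0.191, 0.188 and 0.409 in siControl replicates 1 to 3. POLR3G thus made up between 35.9% and 49.9% of the TPM of the pair in siANXA1 and between 15.8% and 29.03% in siControl, with no overlap. The ratio was lowest among siANXA1 libraries in replicate 2 and highest among siControl libraries in replicate 3. These are the libraries that the first principal component placed with the other group. The part of that division in the ratio was not tested. In bulk RNA, a change in the number of cells that express a gene cannot be told apart from a change in RNA per cell.

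The transcripts behind these levels were estimated with unequal certainty. POLR3GL rested on its coding transcript ENST00000369314, with between 88.4% and 95.8% of the gene's counts in every library. The counts of POLR3G were spread over several coding transcripts, and the share of ENST00000514483 ran from 34.7% to 65.8%. The gene body of POLR3G overlaps MBLAC2 on the opposite strand, which encodes a metallo-beta-lactamase domain protein, and the strand setting of the counting is not given. MBLAC2 stood at 34.9 ± 1.44 CPM in siANXA1 and 29.7 ± 6.63 CPM in siControl (SD, n = 3 each), a log2 fold change of 0.23. Whether POLR3G reads and MBLAC2 reads in the shared stretch were kept apart is therefore not known.

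**Figure D2:**
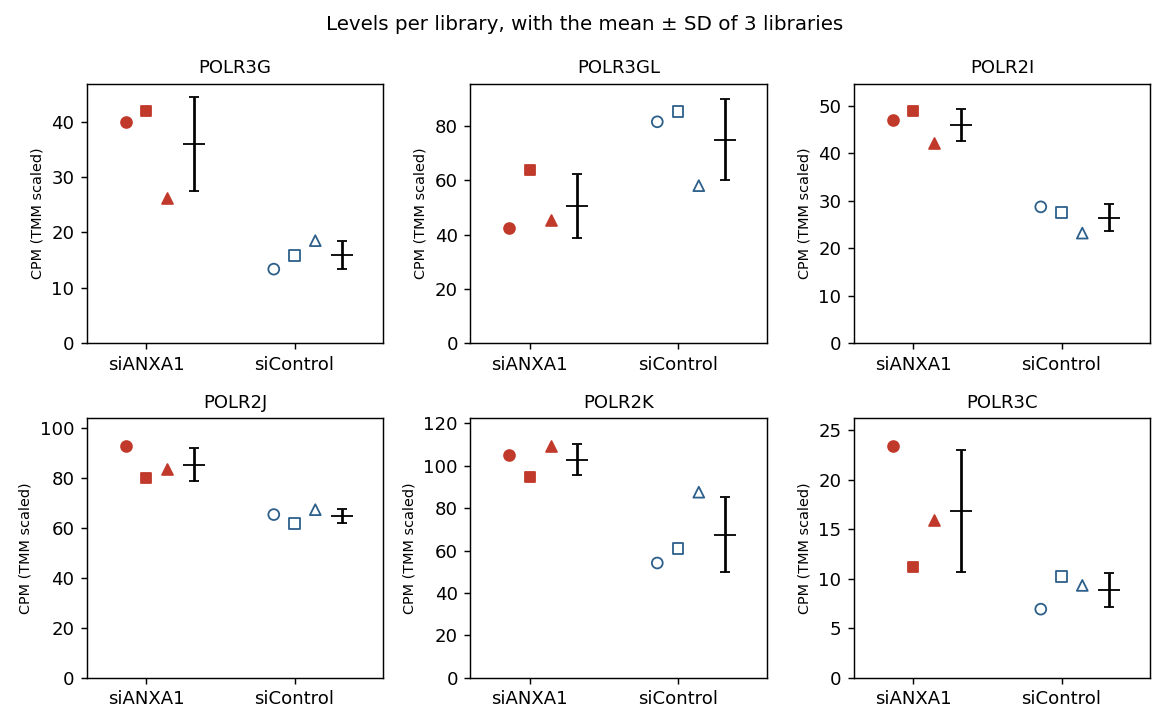
CPM in each library (circle, square and triangle for replicates 1, 2 and 3), siANXA1 filled and siControl open, with the mean ± SD of 3 libraries, for POLR3G, POLR3GL, POLR2I, POLR2J, POLR2K and POLR3C. The groups do not overlap except for POLR3GL, where siANXA1 replicate 2 (63.9 CPM) lies above siControl replicate 3 (58.1 CPM).

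The other members of the trimer behaved unlike each other. POLR3C stood at 23.4, 11.2 and 15.9 CPM in siANXA1, against 6.92, 10.2 and 9.31 CPM in siControl. The groups did not overlap, though siANXA1 replicate 2 lay close to siControl replicate 2, and the log2 fold change was 0.93 ± 0.33 (SE; edgeR adjusted p = 0.625). Its coding transcripts held between 51.8% and 95.5% of the counts, and in siANXA1 replicate 1 a transcript without a reading frame, ENST00000471254, held 423 counts, against 5 to 49 in the other libraries. POLR3F ranged from 11.1 to 23.7 CPM in siANXA1 and from 16.1 to 20.7 CPM in siControl, and its log2 fold change was 0.08.

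The catalytic subunits of polymerase III overlapped between the groups. POLR3A, the largest subunit, stood at 190.4, 108 and 195 CPM in siANXA1, against 86.2, 91.8 and 184 CPM in siControl. POLR3B, the second largest, stood at 50.9, 31.9 and 52.2 CPM in siANXA1, against 32.6, 33.2 and 52.4 CPM in siControl. Both were low in siANXA1 replicate 2 and siControl replicates 1 and 2, the libraries with the most DDIT4, and high in the others. POLR3K, which lets the enzyme cleave RNA and end transcription, was low in the same libraries, with 122, 74.1 and 116 CPM in siANXA1, against 69.4, 65.1 and 108 CPM in siControl. POLR3E stood at 107, 53.9 and 68.2 CPM in siANXA1, against 54.6, 18.2 and 91.1 CPM in siControl. Between 8.29% and 72.0% of its counts lay in coding transcripts, so its estimate is uncertain. POLR3D, the partner of POLR3E, did not follow: it lay between 98.3 and 105 CPM in siANXA1 and between 98.7 and 103 CPM in siControl. Its coefficient of variation over the 6 libraries was 2.58%, and 0.0613% of the genes tested had a smaller one.

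In 18 of the 34 genes the 3 lowest libraries were siANXA1 replicate 2 and siControl replicates 1 and 2, against 20.1% of all genes tested, and in 2 genes, POLR1D and POLR3GL, these were the 3 highest, against 19.7% of all genes. The 18 included 3 of 6 genes of polymerase I, 1 of 2 shared by polymerases I and III, 4 of 5 shared by all 3 enzymes, 5 of 11 of polymerase II and 5 of 10 of polymerase III. This count was made after the values were seen and describes the libraries, not the silencing. Over the polymerase III genes the median deviation of a library from the mean log2 level was 0.43, -0.09 and 0.29 in siANXA1 replicates 1 to 3, against -0.35, -0.38 and 0.24 in siControl replicates 1 to 3.

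**Figure D3:**
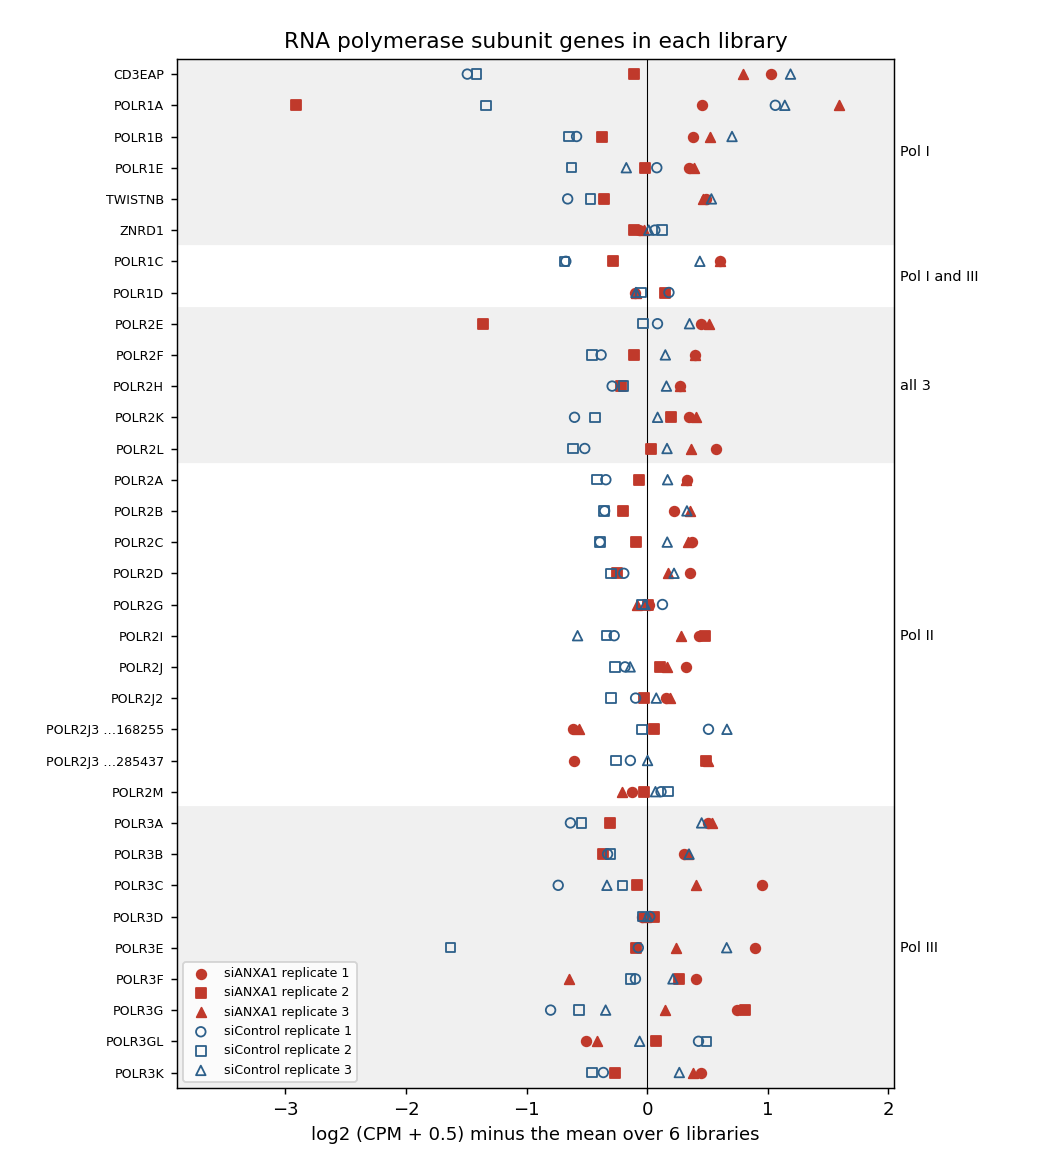
The log2 (CPM + 0.5) of 33 subunit genes in each library minus the gene's mean over the 6 libraries, by enzyme; siANXA1 libraries are filled and siControl libraries open. For most genes siControl replicates 1 and 2 lie left of 0 and siControl replicate 3 lies right of it, while POLR3D, POLR2G, ZNRD1 and POLR1D lie close to 0 throughout.

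The most variable of the 34 genes belong to polymerase I, POLR1A with a coefficient of variation of 73.1% and CD3EAP with 67.3%. POLR1A, the largest subunit, stood at 80.8, 7.40 and 178 CPM in siANXA1, against 123.4, 23.0 and 130.4 CPM in siControl. The low values came from its coding transcript ENST00000263857, with 1 count in siANXA1 replicate 2, and 902 to 6293 counts in the other libraries. The log2 fold change of POLR1A was -0.06 with all libraries and 0.49 without siANXA1 replicate 2. POLR1B, the second largest, stood at 119, 70.5 and 131 CPM in siANXA1, against 60.7, 58.1 and 149 CPM in siControl. Between 22.4% and 98.5% of the counts of POLR1B lay in coding transcripts, so its estimate is uncertain. TWISTNB, of the stalk, stood at 136, 75.6 and 134 CPM in siANXA1, against 61.1, 69.7 and 140.3 CPM in siControl. These genes overlapped widely between the groups.

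CD3EAP and POLR1E encode the partners of the heterodimer that helps polymerase I start transcription. CD3EAP stood at 36.2, 16.2 and 30.7 CPM in siANXA1, against 5.89, 6.22 and 40.4 CPM in siControl, so siControl held the lowest libraries and also the highest. The gene overlaps ERCC1 on the opposite strand, which had 334% of its CPM. Without siControl replicate 3 the log2 fold change of CD3EAP was 2.19, and it was 0.66 with all libraries. POLR1E ranged from 14.7 to 19.6 CPM in siANXA1 and from 9.45 to 15.7 CPM in siControl, and its log2 fold change was 0.48 ± 0.26 (SE). In siControl replicate 1, 23.4% of the counts of POLR1E lay in coding transcripts, against 97.6% to 100% in the other libraries. ZNRD1, which lets the enzyme cleave its RNA, stood at 69.6, 68.0 and 72.0 CPM in siANXA1, against 76.5, 79.6 and 73.8 CPM in siControl. Its groups did not overlap, but the difference was small, at -0.13 ± 0.13 on the log2 scale (SE; edgeR adjusted p = 0.789). Of the assembly platform shared with polymerase III, POLR1C stood at 102, 54.9 and 102 CPM in siANXA1, against 41.7, 41.4 and 90.6 CPM in siControl, while POLR1D lay between 109 and 129 CPM in siANXA1 and between 109 and 132 CPM in siControl. POLR1C overlaps XPO5 on the opposite strand, which had 598% of its CPM, so its level is uncertain.

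The promoters of the subunit genes were looked at for 3 motifs, first the E-box CACGTG, the site bound by MYC with MAX and by related factors. RefSeq windows of 300 bases (250 before the start, 50 from it on, GRCh38.p14) were matched for 24 of the 33 gene names, and a gene was counted where any of its windows held the motif. The E-box, which reads the same on both strands, was present in 4 genes, CD3EAP, POLR3A, POLR3C and POLR3E, of the 24, against 8.77% of the 27305 genes with a window (7.26% of their 35116 windows). The ETS motif CCGGAAG, searched on both strands, was in 9 of the 24 genes, against 12.2% of all genes (10.3% of windows). The NRF1 motif, searched in a single spelling on both strands, was in 3 of the 24, POLR2F, POLR2H and POLR3B, against 1.52% of all genes (1.24% of windows). None of the motifs contains another, and a match describes the window only. The windows of CD3EAP (chr19:45406394-45406693, plus strand), POLR3A (chr10:78029466-78029765, minus strand) and POLR3E (chr16:22297159-22297458, plus strand) are shown because these are the genes of polymerases I and III that hold an E-box and were low in siANXA1 replicate 2 and siControl replicates 1 and 2. This choice was made from the values. POLR3C holds an E-box and did not have this pattern. POLR1B, TWISTNB, POLR1C, POLR3B and POLR3K had the pattern with no E-box in their windows. Whether the E-box has a part in the pattern was not tested. In the windows shown the E-box is in capitals. It begins 12 bases before the RefSeq start in CD3EAP, 35 bases before it in POLR3A and 1 base before it in POLR3E. The CD3EAP transcript with most counts here, ENST00000309424 (75.7% to 92.6%), starts at base 45406209, upstream of the window. The E-box of CD3EAP thus lies within the span of that transcript.
CD3EAP: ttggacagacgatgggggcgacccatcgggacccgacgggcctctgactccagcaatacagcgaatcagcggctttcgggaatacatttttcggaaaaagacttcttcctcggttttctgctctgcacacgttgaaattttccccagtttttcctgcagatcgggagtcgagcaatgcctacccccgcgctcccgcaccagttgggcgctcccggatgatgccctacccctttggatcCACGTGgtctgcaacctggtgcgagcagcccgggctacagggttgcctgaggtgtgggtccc
POLR3A: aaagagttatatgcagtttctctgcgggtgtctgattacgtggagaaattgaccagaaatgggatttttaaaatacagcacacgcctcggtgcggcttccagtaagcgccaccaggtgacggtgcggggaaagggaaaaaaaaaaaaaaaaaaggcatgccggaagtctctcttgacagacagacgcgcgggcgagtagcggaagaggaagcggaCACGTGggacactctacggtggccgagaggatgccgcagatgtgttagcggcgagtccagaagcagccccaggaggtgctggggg
POLR3E: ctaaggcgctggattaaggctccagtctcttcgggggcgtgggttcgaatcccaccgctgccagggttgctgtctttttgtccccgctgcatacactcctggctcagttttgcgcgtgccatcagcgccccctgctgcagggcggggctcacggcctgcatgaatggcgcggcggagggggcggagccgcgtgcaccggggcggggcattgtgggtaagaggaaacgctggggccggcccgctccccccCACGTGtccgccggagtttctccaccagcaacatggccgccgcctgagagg

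POLR2I had the smallest p of the polymerase II genes. This small subunit, whose yeast counterpart acts in the choice of start sites and in proofreading, stood at 47.0, 48.9 and 42.3 CPM in siANXA1, against 28.7, 27.5 and 23.2 CPM in siControl. The groups lay well apart, with 46.1 ± 3.40 CPM in siANXA1 and 26.4 ± 2.90 CPM in siControl (SD, n = 3 each). The log2 fold change was 0.80 ± 0.17 (SE), with an adjusted p of 0.574 in edgeR and an adjusted p of 0.0489 in DESeq2. It stayed between 0.71 and 0.87 over the 17 alternatives, with an unadjusted p under 0.05 in all 17. POLR2I spans bases 36113710 to 36115346 of chromosome 19 (GRCh38, minus strand), and its coding transcript ENST00000221859 held between 80.4% and 87.7% of its counts. It overlaps TBCB, a tubulin chaperone gene on the opposite strand, which stood at 46.2 ± 1.32 CPM in siANXA1 and 41.1 ± 7.08 CPM in siControl (SD, n = 3 each), a log2 fold change of 0.17.

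POLR2J, which with POLR2C forms the assembly platform of polymerase II, stood at 92.6, 79.9 and 83.3 CPM in siANXA1, against 65.3, 61.6 and 67.2 CPM in siControl. The groups did not overlap, and the log2 fold change was 0.40 ± 0.14 (SE; edgeR adjusted p = 0.625). POLR2J2 and POLR2J3 are near-identical copies on chromosome 7 whose reads can be exchanged with each other and with POLR2J, and the 2 identifiers of POLR2J3 overlap on the same strand. POLR2J2 stood at 5.27, 4.57 and 5.38 CPM in siANXA1, against 4.33, 3.70 and 4.94 CPM in siControl. POLR2J3 under ENSG00000168255 stood at 2.97, 5.02 and 3.08 CPM in siANXA1, against 7.06, 4.66 and 7.91 CPM in siControl. Under ENSG00000285437 it stood at 5.71, 12.7 and 12.9 CPM in siANXA1, against 8.07, 7.39 and 8.95 CPM in siControl. The first of these was the one gene with a lower level at an unadjusted p under 0.05 (log2 fold change -0.83 ± 0.34, SE; edgeR adjusted p = 0.627), and the second had a positive log2 fold change of 0.36 ± 0.35 (SE), so the signs under the 2 identifiers differed. Under ENSG00000168255 the unadjusted p stayed under 0.05 in 7 of the 16 alternatives that gave a value, and between 0% and 6.2% of its counts lay in the coding transcript.

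POLR2A, which carries the tail of heptad repeats that is phosphorylated during transcription, stood at 326, 246 and 323 CPM in siANXA1, against 204, 194 and 291 CPM in siControl. POLR2B, the second largest subunit, stood at 375, 280.2 and 411 CPM in siANXA1, against 251, 250.4 and 404 CPM in siControl. Both were lowest in siControl replicates 1 and 2, and the groups overlapped through siControl replicate 3. Nearly all counts of POLR2A, between 96.8% and 99.0%, lay in ENST00000617998, a transcript that the annotation does not class as protein coding, so the class of the transcript is no measure of coding RNA here. POLR2C stood at 167, 121 and 164 CPM in siANXA1, against 98.2, 98.2 and 145 CPM in siControl. Of the stalk, POLR2D ranged from 46.6 to 71.2 CPM in siANXA1 and from 45.1 to 65.0 CPM in siControl, and POLR2G from 93.7 to 100.5 CPM and from 96.6 to 109 CPM. POLR2M, which encodes an associated protein that blocks the binding of initiation factors, stood at 31.9, 34.2 and 29.9 CPM in siANXA1, against 37.6, 39.2 and 36.4 CPM in siControl. All siANXA1 libraries of POLR2M were lower, by -0.24 ± 0.16 on the log2 scale (SE; edgeR adjusted p = 0.699).

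The subunits shared by all 3 enzymes were mostly above 0 in fold change. POLR2K, a small zinc-binding subunit, stood at 105, 94.7 and 109 CPM in siANXA1, against 54.1, 60.9 and 87.5 CPM in siControl. The groups did not overlap, and the log2 fold change was 0.61 ± 0.22 (SE; edgeR adjusted p = 0.625). POLR2L, another zinc-binding subunit of the core, stood at 125, 85.6 and 108 CPM in siANXA1, against 58.3, 54.4 and 93.9 CPM in siControl, with siControl replicate 3 above siANXA1 replicate 2. Its log2 fold change was 0.62 ± 0.27 (SE; edgeR adjusted p = 0.629). POLR2F and POLR2H ranged from 54.8 to 77.9 CPM and from 48.6 to 68.4 CPM in siANXA1, against 42.9 to 65.6 CPM and 46.1 to 63.2 CPM in siControl. POLR2E stood at 179.7, 51.0 and 187 CPM in siANXA1, against 139.6, 128 and 168 CPM in siControl. Its coding transcript ENST00000615234 had 464 counts in siANXA1 replicate 2, and 3826 to 7051 in the other libraries. The log2 fold change of POLR2E was -0.06 with all libraries and 0.34 without siANXA1 replicate 2.

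Per length, the subunits of a single enzyme were far from equal in RNA. For polymerase II, whose subunits are present once each in the enzyme, the level averaged 210.1 TPM for POLR2G, 183 TPM for POLR2B, 143 TPM for POLR2J, 119 TPM for POLR2C, 78.5 TPM for POLR2A, 75.5 TPM for POLR2I and 27.1 TPM for POLR2D over the 6 libraries. The stalk partners POLR2G and POLR2D thus stood at the top and near the bottom of the same enzyme. The genes of polymerase I lay between 14.4 TPM (POLR1E) and 166 TPM (ZNRD1), with a median of 29.4 TPM. Those of polymerase III alone lay between 15.0 TPM (POLR3F) and 118 TPM (POLR3K), with a median of 39.2 TPM, and those of all 3 enzymes between 61.1 TPM (POLR2F) and 174 TPM (POLR2L), with a median of 105 TPM. The largest subunits averaged 15.4 ± 9.36 TPM for POLR1A, 78.5 ± 15.9 TPM for POLR2A and 39.3 ± 14.04 TPM for POLR3A (SD over all 6 libraries), and the second largest 43.5 ± 16.6 TPM for POLR1B, 183 ± 33.8 TPM for POLR2B and 17.5 ± 4.31 TPM for POLR3B. POLR1A and POLR3B did not differ beyond their spread. With coding transcripts alone, 12 of 33 levels moved by over 1 SD, POLR2A among them (1.03 TPM), so the order of neighbours is not firm.

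**Figure D4:**
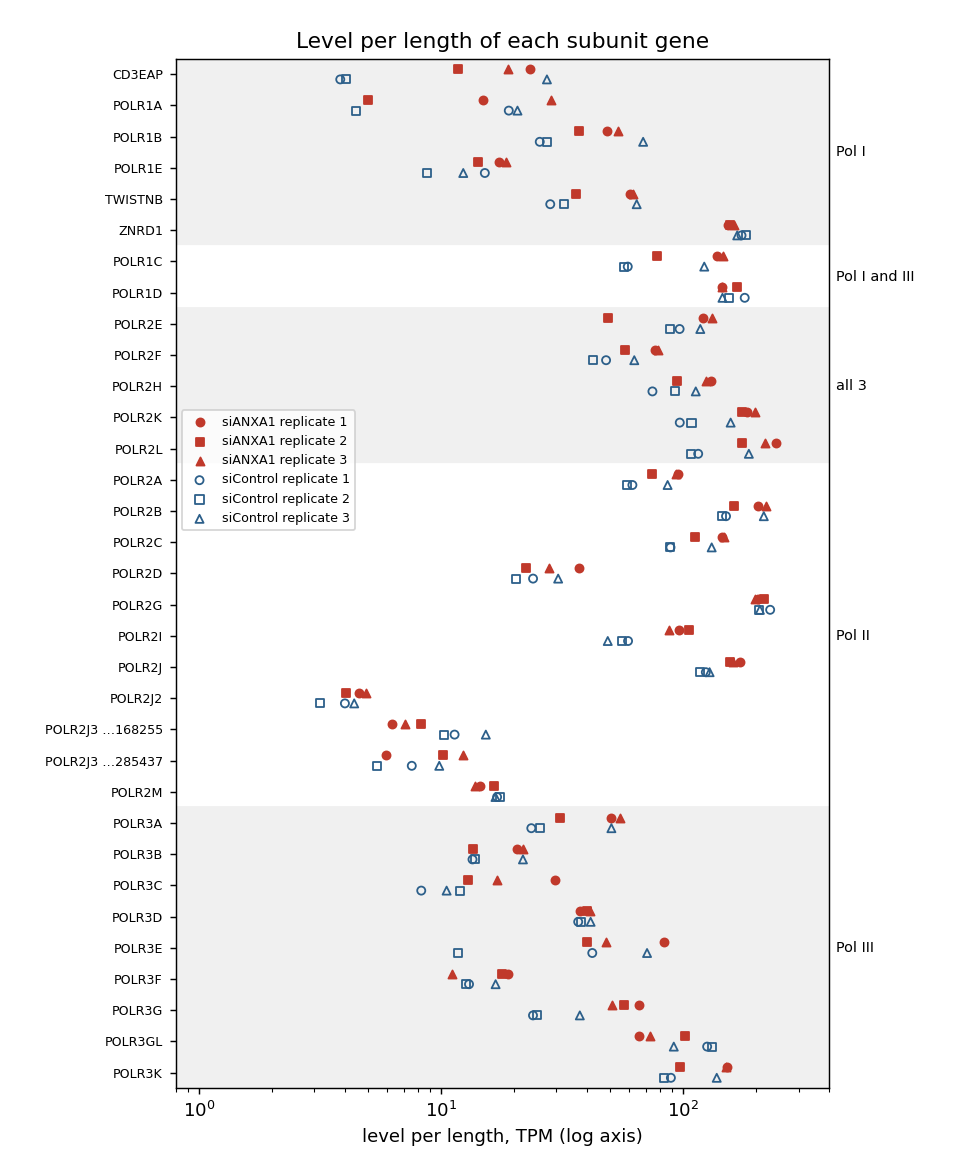
Level per length (TPM, log axis) of 33 subunit genes in each library, by enzyme; siANXA1 libraries are filled and drawn above the open siControl libraries. POLR2G (210.1 TPM on average) and POLR2B (183 TPM) are the highest, and POLR2J2 (4.18 TPM) is the lowest.

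The other genes of the machinery were read from 5 lists of 77 genes, all of them measured and tested. None passed edgeR at an adjusted p of 0.05, against 0.0111% of all genes. At an unadjusted p under 0.05, 4 were higher and 3 lower, against 3.4% and 4.52% of all genes. In 52 of the 77 the log2 fold change was positive, against 50.5% of all genes, with a median of 0.12. DESeq2 called 1, GPN2, against 0.834% of the genes it tested. Of 7 factors of polymerase I, TAF1D, a part of the promoter selectivity factor, stood at 104 ± 7.45 CPM in siANXA1 and 87.4 ± 19.0 CPM in siControl (SD, n = 3 each). RRN3, which links the enzyme to growth signals, stood at 97.9 ± 34.8 CPM in siANXA1 and 73.2 ± 33.0 CPM in siControl, and UBTF, the activator of ribosomal genes, at 139 ± 55.9 CPM in siANXA1 and 129.9 ± 70.4 CPM in siControl.

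Of 18 polymerase II general factors, GTF2H3, a subunit of TFIIH, stood at 94.7, 98.1 and 95.4 CPM in siANXA1, against 68.7, 67.6 and 61.4 CPM in siControl. Its groups did not overlap, and the log2 fold change was 0.54 ± 0.13 (SE; edgeR adjusted p = 0.605). CCNH, the cyclin of the TFIIH kinase, stood at 87.5 ± 9.13 CPM in siANXA1 and 67.3 ± 6.97 CPM in siControl (SD, n = 3 each), and GTF2F1, the most abundant, at 151 ± 22.3 CPM in siANXA1 and 153 ± 23.0 CPM in siControl. Of 19 pausing and elongation factors, LEO1, a part of the PAF1 complex, stood at 34.8, 40.1 and 33.6 CPM in siANXA1, against 49.7, 49.4 and 47.4 CPM in siControl, and its log2 fold change was -0.43 ± 0.16 (SE; edgeR adjusted p = 0.627). CDK9, the kinase that releases paused polymerase II, stood at 42.8, 34.3 and 36.1 CPM in siANXA1, against 52.5, 49.4 and 47.8 CPM in siControl, and its log2 fold change was -0.40 ± 0.16 (SE; edgeR adjusted p = 0.627). In both genes every siANXA1 library was lower. SUPT6H, a histone chaperone of elongation, was the most abundant of the list, at 271 ± 44.7 CPM in siANXA1 and 249.7 ± 23.9 CPM in siControl.

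Of 18 genes listed for polymerase III (initiation factors together with MAF1, CRCP and SSB), 15 had a positive log2 fold change, against 50.5% of all genes. It was also positive in 6 of 7 polymerase I factors and in 10 of 15 assembly and import factors. For polymerase II it was positive in 10 of 18 general factors and in 11 of 19 pausing and elongation factors. At an unadjusted p under 0.05, 2 of the 18 polymerase III genes were higher (CRCP and BRF2) and 1 was lower (SNAPC1). The shares over all genes were 3.4% and 4.52%. CRCP, a stalk subunit of polymerase III that the naming rule did not take in, stood at 22.1, 37.5 and 21.9 CPM in siANXA1, against 13.4, 15.8 and 13.4 CPM in siControl. Its groups did not overlap, and the log2 fold change was 0.93 ± 0.27 (SE; edgeR adjusted p = 0.605). BRF2, the factor of promoters such as that of the U6 RNA, stood at 47.1, 37.4 and 45.7 CPM in siANXA1, against 22.2, 29.9 and 33.1 CPM in siControl, again without overlap (log2 fold change 0.61 ± 0.21, SE; edgeR adjusted p = 0.625). SNAPC1, of the complex that binds snRNA gene promoters, stood at 13.5, 20.5 and 13.6 CPM in siANXA1, against 28.4, 29.2 and 19.6 CPM in siControl. Its groups overlapped, and the log2 fold change was -0.70 ± 0.27 (SE; edgeR adjusted p = 0.627). SSB, which binds the ends of new polymerase III transcripts, stood at 519 ± 40.0 CPM in siANXA1 and 476 ± 93.5 CPM in siControl (SD, n = 3 each). Of 15 assembly and import factors, GPN2, a GTPase known from yeast to act in polymerase assembly, stood at 10.5, 30.3 and 52.9 CPM in siANXA1, against 8.35, 7.42 and 4.40 CPM in siControl. Its log2 fold change was 2.21 ± 0.60 (SE), with an adjusted p of 0.605 in edgeR and an adjusted p of 0.023 in DESeq2. SLC7A6OS, counterpart of a yeast factor that imports polymerase II, stood at 26.3 ± 1.27 CPM in siANXA1 and 19.9 ± 2.83 CPM in siControl, and RUVBL2, an ATPase of the assembly chaperone, at 302, 299 and 102 CPM in siANXA1, against 325, 55.7 and 326 CPM in siControl.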

How the data were processed

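Total RNA of 6 libraries was prepared with a TruSeq kit of Illumina, per the labels' protocols. What the authors deposited for each transcript is an estimated count, whole and not normalized; that the counts are estimates was read from the values. Not given in the sources used here are the aligner, the counting tool and its strand setting. The submitters' processing notes name mm10, a mouse build, and no other. All 279 transcripts of the subunit genes were found at the same positions in GENCODE release 29 (GRCh38), whose coordinates are used. Rows without a gene (16014, between 16.9% and 17.7% of each library's counts) stayed out of tests and library sizes.

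Counts were summed per gene and tested in edgeR 4.0.16 (R 4.3.3; filterByExpr, TMM, robust glmQLFit, glmQLFTest; group as the only term), two-sided, with Benjamini-Hochberg adjustment over 17947 genes; the SE is the log2 fold change over the root of F. TPM was computed from each transcript's count over its deposited length. A further 16 settings were tried: RLE and upper quartile scaling, DESeq2 1.42.0, limma-voom (limma 3.58.1), other filters, other transcript sums, a replicate block, protein coding genes alone and leaving out each library; 1 was added after seeing the data. The test was checked on simulated counts, with 2 false calls. Motifs were searched in RefSeq promoter windows. Figures were drawn with matplotlib 3.10.9.

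The subunit genes, lists and tests were chosen with earlier results of these data known. Values in every library were given for the 2 largest subunits of each enzyme, for subunit genes at an unadjusted p under 0.05 and for paralogs. Of each list, the 2 genes with the smallest p and the most abundant one were named, some by mean and SD alone. Others were named after their values were seen. Of the 34 genes, 1 is included in counts and medians but is not reported here by name.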

Additional observations from a re-analysis of the deposited data

How the results depend on the processing

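The count of all genes called in edgeR, 2, was 160 in DESeq2, 0 with protein coding transcripts alone, 1 with the most abundant transcript per gene, 1 with protein coding genes alone, 0 with the replicate number as a block, 5 with a covariate for the side of principal component 1 (added after seeing the data) and between 0 and 7 with a library left out. The count of subunit genes called, 0, was 2 in DESeq2 and 0 under the 16 other alternatives, and that of machinery genes, 0, was 1 in DESeq2 and 0 otherwise. The count of subunit genes at an unadjusted p under 0.05, 6, was 10 with that covariate and between 2 and 16 with a library left out. The replicate numbers were not taken as pairs: deviations of same-numbered libraries correlated at -0.11, 0.26 and 0.26, so 1 pair of 3 ran against pairing, while 2 of 3 siANXA1 libraries correlated best with their own number. With the replicate block, 6 subunit genes had an unadjusted p under 0.05.

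Of 559 log2 fold changes of the 33 genes reported singly under alternatives, 28 changed sign, in 12 genes, and the cause was not tested. POLR3D was -0.049 with upper quartile scaling, -0.017 with no filter, -0.022 with a strict filter and -0.019 with the most abundant transcript. With protein coding transcripts alone, POLR2A was -1.93, POLR3E -0.24, POLR3F -0.28 and POLR2E 0.048. With the most abundant transcript per gene, POLR2B was -0.39, POLR3F -0.29 and POLR2H -0.40. With the covariate, POLR1B was -0.00391, POLR1D 0.039 and POLR3B -0.035. With a library left out, POLR1A ranged from -1.06 to 0.49, POLR1D from -0.11 to 0.056, POLR2G from -0.088 to 0.00216, POLR3D from -0.018 to 0.031, POLR3F from -0.12 to 0.35 and POLR2E from -0.33 to 0.34. In the simulated counts, with changed genes drawn from all genes tested, 0 of 67 changes were found at 2-fold and 18 of 67 at 4-fold. At 8-fold, 34 of 66 were found.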
